A study of Rattus norvegicus with 8 samples.

Results

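Acute phase proteins are plasma proteins that the liver makes in changed amounts during infection or injury. The group described here held 10 genes, Orm1, Lcn2, A2m, Itih3, Itih4, Lbp, Hp, Hpx, Crp and Apcs, chosen by name as every non-control probe whose gene name matched. They had 21 probes of 46883 on the array, and 10 of its 25512 gene names. RNA levels were measured in liver samples of male Sprague Dawley rats, an outbred laboratory strain, with 4 samples from a diet of 60% fat fed for 12 weeks (high-fat) and 4 from a normal diet fed for 12 weeks (control). The labels give a weight of 180 to 200 g for both groups, without saying when it was taken, and give no age and no further treatment. Nothing in them says that the samples are different animals, and p-values therefore cover only the spread among the samples, which may be technical.

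The acute phase response is driven in hepatocytes by interleukin-6 and interleukin-1, which act through STAT3, NF-kappaB and C/EBP factors, and glucocorticoids strengthen it for many of its genes. Most of the 10 proteins are secreted by hepatocytes, while Lcn2 is also made by neutrophils and other cells. In rats, A2m and Orm1 are among the proteins that increase strongly in inflammation, whereas Crp circulates at a high level in healthy animals and increases little. Whole liver was measured, so fewer cells of a type and less RNA per cell cannot be told apart.

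All values are normalized log2 intensities, in which 0 is each array's 75th percentile, taken over probes that every array measured well above background. A difference of 1 is a 2-fold change, and differences are high-fat minus control. The brightest probe of a gene by its mean over the arrays is called its first probe and stands for the gene, and levels of different probes cannot be set against each other. The share of all probes well above background ran from 56.4% (replicate 1) to 71.4% over the high-fat arrays, against 50.4% (replicate 1) to 71.9% over the control arrays. The number of arrays, 8, limits the precision. All 10 hepatocyte markers were measured, and their mean level lay between 4.57 and 4.96 on the high-fat arrays, against 4.49 and 4.79 on the control arrays. All 21 member probes were measured on enough arrays to be tested, and 20 of them were well above background on all 8.

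Probes of Orm1, A2m, Lcn2 and Crp are shown, to let a reader see which stretches of these transcripts were read. Orm1 was the one member that passed the test, and its pair of probes read separate stretches of the transcript, with no shared run longer than 5 bases. The first lies on chromosome 5 at 80326525 to 80326584 (rn4, plus strand), and the files give no position for the second.
Orm1, first probe: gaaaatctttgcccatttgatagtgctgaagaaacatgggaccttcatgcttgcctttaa
Orm1, second probe: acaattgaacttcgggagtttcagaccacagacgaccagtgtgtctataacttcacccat
Of the 3 probes of A2m, 2 are nearly the same sequence, with a shared run of 58 bases in capitals, and so count as 1 measurement. The mapped one lies on chromosome 4 at 158152445 to 158152504 (rn4, plus strand).
A2m, first probe: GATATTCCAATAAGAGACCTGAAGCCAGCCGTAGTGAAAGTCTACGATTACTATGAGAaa
A2m, unmapped probe: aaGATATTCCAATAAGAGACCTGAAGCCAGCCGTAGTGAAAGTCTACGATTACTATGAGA
The probes of Lcn2 gave differences of opposite sign, and the first 30 bases of each are shown. The second lies on chromosome 3 at 11511592 to 11511651 (rn4, minus strand).
Lcn2, first probe: aacttgatccctgccccacctctgatcagt
Lcn2, second probe: caatgcattgacaactgaacagacggtgag
The second probe of Crp begins with the letters ATG, in capitals, and lies on chromosome 13 at 88702243 to 88702302 (rn4, plus strand). It and the first probe of Crp differed in how they read control replicate 1.
Crp, first probe: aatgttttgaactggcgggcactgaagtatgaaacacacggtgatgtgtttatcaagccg
Crp, second probe: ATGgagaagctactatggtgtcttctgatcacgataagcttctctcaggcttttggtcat

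In the high-fat livers Orm1 was lower, by 2.38-fold, and it was the only one of the 10 genes to pass the test. That call held in 8 of 20 alternatives and was lost whenever any one array was left out, while the difference stayed negative in all 20. Lbp and A2m had negative differences of similar size to each other that did not pass, and Lcn2 a small positive one. The other 6 genes, Itih3, Itih4, Hp, Hpx, Crp and Apcs, differed by at most 0.15 on the log2 scale in either direction. By limma at an adjusted p under 0.05, 0 members were higher and 1 was lower, against 0.35% of the 18595 tested genes higher and 0.527% lower (0.877% in either direction). Of the 21 probes, 2 passed, both of Orm1, against 0.907% of all tested probes. At an unadjusted p under 0.05, 1 member was higher (Lcn2) and 3 were lower (Orm1, Lbp and A2m), against 7.21% and 8.39% of all tested genes. The groups did not overlap for 1 member that was higher (Lcn2) and for 2 that were lower (Orm1 and Lbp), against 4.87% and 6.27% of all tested genes (11.1% in either direction). By probe, 6 of 21 had no overlap, those of Orm1 and Lbp, 1 of A2m and 1 of Lcn2, against 10.6% of all tested probes. The median difference of the 10 members was -0.08, against 0.003 over all tested genes, with 3 members positive and 7 negative.

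**Figure D1:**
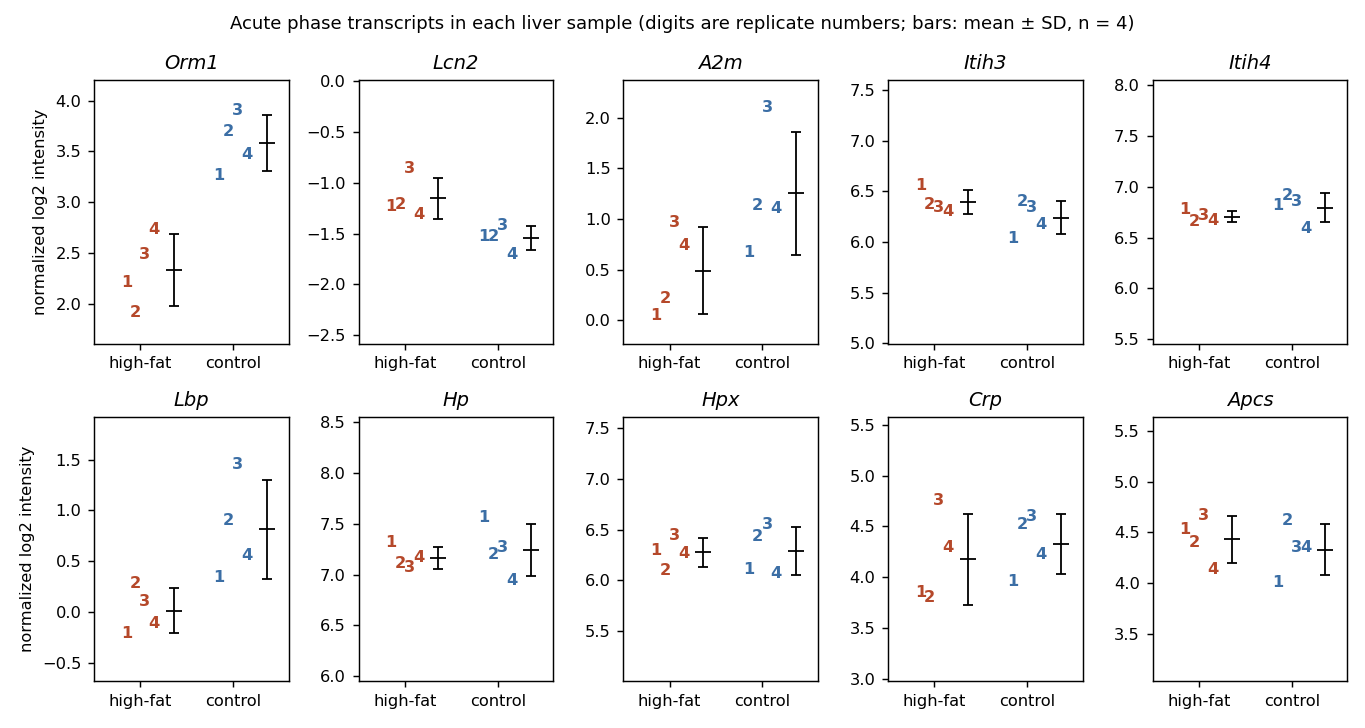
Normalized log2 intensity of the probe that stands for each of the 10 genes on each array, high-fat samples left of control samples in every panel, with bars for the mean and SD of 4 arrays. The Orm1 points of the high-fat group, 1.91 to 2.73, all lie below those of the control group, 3.26 to 3.90, while the groups mix for Hp, Hpx, Itih3, Itih4, Crp and Apcs.

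The lipocalins Orm1 and Lcn2 are small carriers with a binding pocket. Orm1, alpha-1-acid glycoprotein, binds basic and neutral drugs and steroids in plasma and dampens immune cell activity. On its first probe it measured 2.20, 1.91, 2.49 and 2.73 in high-fat replicates 1 to 4, against 3.26, 3.70, 3.90 and 3.47 in control replicates 1 to 4. Every high-fat sample was below every control sample, and the means were 2.33 ± 0.35 in high-fat livers and 3.58 ± 0.28 in control livers (SD, n = 4 each). The difference was -1.25 (95% interval -1.74 to -0.76; adjusted p = 0.0438 by limma), lower in 4 of 4 samples. The 3 spots of that probe on an array varied with an SD of 0.082, well under the spread between samples.

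The second Orm1 probe, with letters of its own, gave 1.61, 1.05, 1.71 and 1.64 in high-fat replicates 1 to 4, against 2.57, 2.77, 2.99 and 2.91 in control replicates 1 to 4. These groups also did not overlap. Its difference was -1.31 (95% interval -1.72 to -0.90; adjusted p = 0.0265 by limma), close to that of the first probe. The diets were 2 and 2 in each row of the slide, and within the rows the first probe differed by -1.42 and -1.08, and the second by -1.34 and -1.28. The call on the first probe rested on all 8 arrays. Leaving out any one of them kept the difference between -1.38 and -1.11 but put the adjusted p at 0.0626 to 0.1197, and over all 20 alternatives the call held in 8, with an adjusted p of 0.0182 to 0.1297. The second probe was called in 10 of 19 alternatives and, among the arrays left out in turn, kept its call only without high-fat replicate 1 (adjusted p = 0.0483) or control replicate 1 (adjusted p = 0.0475).

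The promoter sequences used here, from RefSeq on the GRCr8 build, covered 7 of the 10 genes (all but Hp, A2m and Lbp). The 250 bases before the Orm1 start are shown because this gene is known in rats for a response element of C/EBP and glucocorticoid receptor. They lie at chr5:81788259-81788508 on the plus strand, and the capitals mark the single match, 123 to 116 bases before the start, to the C/EBP letters TTGCNNAA on either strand.
Orm1, upstream: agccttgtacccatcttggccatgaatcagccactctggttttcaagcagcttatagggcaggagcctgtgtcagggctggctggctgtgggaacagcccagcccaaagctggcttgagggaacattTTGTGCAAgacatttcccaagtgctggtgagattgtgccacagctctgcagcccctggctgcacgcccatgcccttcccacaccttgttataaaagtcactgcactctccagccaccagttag
These letters were in the same window of 4 of the 7 members (Orm1, Hpx, Itih4 and Lcn2) and in 9.22% of 33469 promoters. STAT letters TTCNNNGAA were in 1 of 7 (Itih4) and in 7.67% of promoters, and the glucocorticoid receptor letters TGTTCT were in 1 of 7 (Crp) and in 17.5%. No 2 of these matches overlapped. The difference of the 4 genes with the C/EBP letters ran from that of Orm1, -1.25, to that of Lcn2, 0.39, and a match is a run of letters, not a bound site.

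Lcn2, neutrophil gelatinase-associated lipocalin, captures bacterial siderophores and so keeps iron from microbes. Its first probe measured -1.23, -1.21, -0.86 and -1.31 in high-fat replicates 1 to 4, against -1.52, -1.53, -1.42 and -1.71 in control replicates 1 to 4. Each high-fat sample was above each control sample, though by as little as 0.114 between the nearest pair. The difference of 0.39 (95% interval 0.07 to 0.72) did not pass after adjustment (adjusted p = 0.239 by limma). The second probe was well above background on 3 of 4 arrays of each group, and gave -7.17, -4.31, -4.58 and -3.71 in high-fat replicates 1 to 4, against -6.97, -1.82, -0.60 and -6.12 in control replicates 1 to 4. Its values ran through both groups, with a difference of -1.06 (95% interval -4.41 to 2.28). Without control replicate 3 that difference was 0.03. The second probe therefore gave no direction of its own, and that of Lcn2 rested on the first probe alone.

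Among neutrophil markers, which could bring Lcn2 with them, 7 of 10 were tested and 1 passed, against 0.877% of all tested genes. That marker was Np4, a neutrophil defensin. It was not well above background on any control array, which puts its fold at 17 or more, and its part in the Lcn2 result was not tested. That bound sets the high-fat mean against, on each control array, the higher of the probe's value and the lowest signal well above background. Mpo, the myeloperoxidase of neutrophil granules, was above background on 0 of 8 arrays, and Ngp on 1. Np4 entered the tested markers through the high-fat arrays alone. The other 6 markers differed by -0.24 to 0.22, with a median of 0.06 and a mean level of -4.40 to -3.32 on the high-fat arrays, against -4.05 to -3.24 on the control arrays.

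A2m, Itih3 and Itih4 bind proteases or the matrix. A2m, alpha-2-macroglobulin, traps proteases of every class in a cage and is a classical strongly responding protein of the rat. On its first probe it measured 0.05, 0.22, 0.97 and 0.74 in high-fat replicates 1 to 4, against 0.67, 1.13, 2.10 and 1.11 in control replicates 1 to 4. High-fat replicates 3 and 4 lay within the control range, and control replicate 3 stood above all other arrays. The difference was -0.76 (95% interval -1.51 to -0.01; adjusted p = 0.317 by limma), and without control replicate 3 it was -0.48 (adjusted p = 0.488).

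The third A2m probe, on chromosome 4 at 158153349 to 158153408 (rn4), shares at most 6 bases in a row with the others. It gave -0.26, -0.30, 0.47 and 0.20 in high-fat replicates 1 to 4, against 0.64, 0.73, 1.88 and 0.75 in control replicates 1 to 4, with no overlap. Its difference was -0.97 (95% interval -1.68 to -0.27; adjusted p = 0.191), and the unmapped probe gave -0.79 (adjusted p = 0.313). None of the 3 passed by limma, in the fit with all arrays or in any of 19 alternatives each.

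Itih3 and Itih4 are heavy chains of the inter-alpha-trypsin inhibitor family, and Itih3 is one of those that are transferred to hyaluronan in the matrix. The genes are neighbours, with 0 protein-coding genes between them in RefSeq, and their mapped probes lie on chromosome 16 at 6341256 to 6341918 and at 6334720 to 6334779 (rn4). Itih3 measured 6.56, 6.37, 6.34 and 6.30 in high-fat replicates 1 to 4, against 6.04, 6.40, 6.34 and 6.18 in control replicates 1 to 4. Itih4 measured 6.78, 6.66, 6.71 and 6.67 in high-fat replicates 1 to 4, against 6.81, 6.92, 6.86 and 6.59 in control replicates 1 to 4. The groups overlapped for both, with differences of 0.15 for Itih3 (95% interval -0.15 to 0.46) and -0.09 for Itih4 (95% interval -0.37 to 0.19). Over the first probes, the smallest SD within a group was that of Itih4 in the high-fat samples, 0.054. In the control samples its SD was 0.142, above the 0.118 of Lcn2, and that of the second Itih4 probe was 0.867.

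Lbp, lipopolysaccharide-binding protein, passes bacterial endotoxin to Cd14 on macrophages and so starts the response to it. Its first probe, on chromosome 3 at 149043196 to 149043255 (rn4), measured -0.22, 0.28, 0.10 and -0.11 in high-fat replicates 1 to 4, against 0.33, 0.90, 1.46 and 0.56 in control replicates 1 to 4. The groups did not overlap, but the nearest pair, high-fat replicate 2 and control replicate 1, lay 0.057 apart. The difference was -0.80 (95% interval -1.36 to -0.24; adjusted p = 0.181 by limma), lower in 4 of 4 samples.

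The second Lbp probe gave -0.69, -0.26, -0.17 and -0.41 in high-fat replicates 1 to 4, against -0.10, 0.44, 1.07 and 0.32 in control replicates 1 to 4. It again had no overlap, with a difference of -0.81 (adjusted p = 0.173), almost that of the first. As with A2m, control replicate 3 was the highest array. Without it the first probe differed by -0.58 (adjusted p = 0.296) and the second by -0.60 (adjusted p = 0.287).

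Hp, haptoglobin, binds free haemoglobin, and Hpx, hemopexin, binds free haem, so both save iron and limit oxidative damage after haemolysis. Hp, read by a probe on chromosome 19 at 39443156 to 39443215 (rn4), measured 7.32, 7.11, 7.07 and 7.17 in high-fat replicates 1 to 4, against 7.57, 7.20, 7.26 and 6.94 in control replicates 1 to 4. Hpx, read on chromosome 1 at 163319663 to 163319722 (rn4), measured 6.30, 6.09, 6.44 and 6.27 in high-fat replicates 1 to 4, against 6.11, 6.44, 6.55 and 6.07 in control replicates 1 to 4. For both, the control arrays reached above and below all high-fat arrays. The differences were -0.08 for Hp (95% interval -0.43 to 0.28; adjusted p = 0.868 by limma) and -0.01 for Hpx (95% interval -0.37 to 0.34; adjusted p = 0.980 by limma).

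The pentraxins Crp, C-reactive protein, and Apcs, serum amyloid P component, are ring-shaped proteins that mark damaged cells and microbes for complement and phagocytes. They are neighbours too, with 0 protein-coding genes between them in RefSeq and mapped probes 411 kb apart on rn4, that of Apcs on chromosome 13 at 89113186 to 89113245. Crp measured 3.85, 3.80, 4.75 and 4.29 in high-fat replicates 1 to 4, against 3.95, 4.52, 4.60 and 4.22 in control replicates 1 to 4. Apcs measured 4.53, 4.40, 4.67 and 4.13 in high-fat replicates 1 to 4, against 4.003, 4.62, 4.35 and 4.35 in control replicates 1 to 4. High-fat replicate 3 was the highest array for both, and the groups overlapped. The differences were -0.15 for Crp (95% interval -0.71 to 0.41) and 0.10 for Apcs (95% interval -0.30 to 0.50), with adjusted p = 0.834 and adjusted p = 0.844 by limma.

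**Figure D2:**
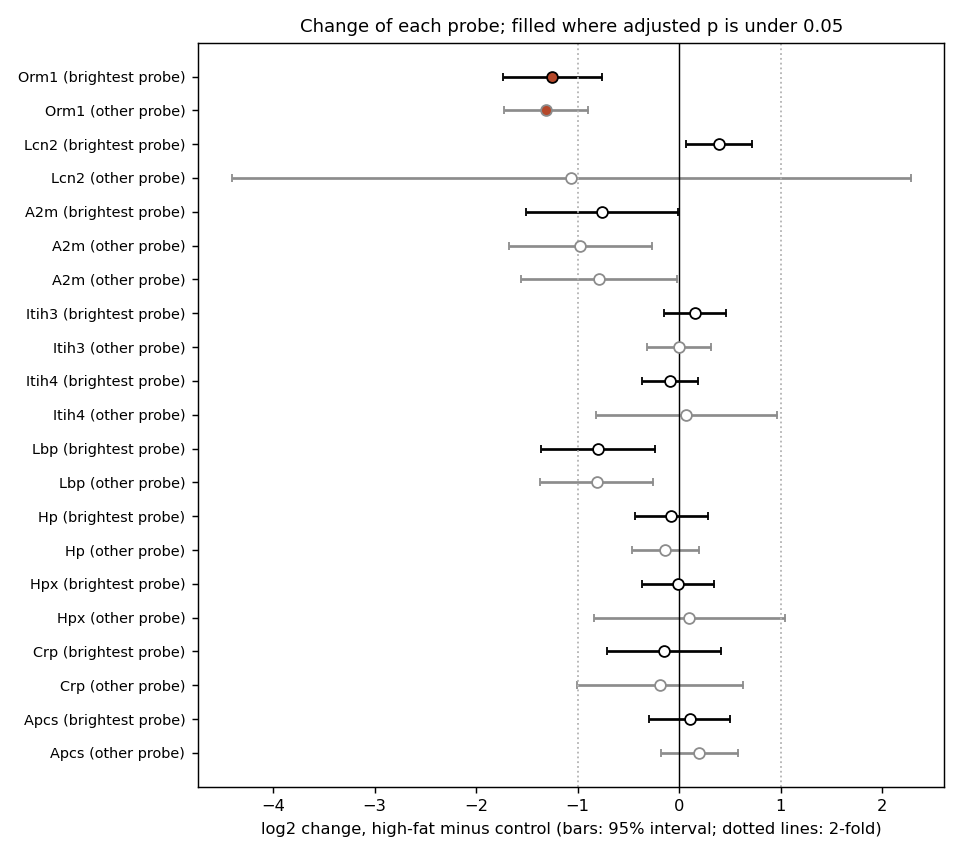
Difference of high-fat minus control livers on the log2 scale for every probe of the 10 genes, with points for limma's estimate from 4 against 4 arrays and lines for its 95% interval. Both Orm1 probes lie at -1.25 and -1.31 with intervals clear of 0, the probes of A2m and Lbp lie between -0.97 and -0.76, and the second Lcn2 probe has an interval of -4.41 to 2.28.

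The 95% intervals of 7 of the 10 members (Lcn2, Itih3, Itih4, Hp, Hpx, Crp and Apcs, each by its first probe) lay inside a 2-fold change in either direction, with an outer bound of 0.72, or 1.64-fold. Those of Orm1, A2m and Lbp reached past it. On their second probes, Hpx (upper bound 1.04), Crp (lower bound -1.01) and Lcn2 (-4.41 to 2.28) reached past it too. SDs within a group ran from 0.054 to 0.603 over the first probes, and those between spots of 1 probe on an array from 0.048 to 0.168, apart from 0.249 for the second Lcn2 probe.

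The samples were not uniform within the groups. Control replicate 3 held the highest value of all 8 arrays for Orm1, A2m, Lbp and Hpx, and control replicate 4 the lowest for Hp, Itih4, Hpx and Lcn2. High-fat replicate 3 was highest for Lcn2, Crp and Apcs. Averaged over the 10 genes, the level was 3.61, 3.56, 3.87 and 3.69 in high-fat replicates 1 to 4, against 3.72, 4.03, 4.20 and 3.78 in control replicates 1 to 4, so that these averages overlapped between the groups.

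Probes of 1 gene moved together from array to array for some members and apart for others. For Orm1, Lbp, Hp, Itih3 and Apcs, the second probe minus the first varied over the 8 arrays with an SD of 0.09 to 0.18, and the A2m probes differed from the first with SDs of 0.11 and 0.17. For Lcn2, whose second probe was dim, that SD was 2.37, with a range from -2.87 on high-fat replicate 1 to 3.88 on control replicate 3. The differences between the diets on the second probes of Hp, Itih3 and Apcs were -0.14, -0.0024 and 0.20, and none of these passed. For Crp, Hpx and Itih4 that SD was 0.38, 0.52 and 0.60, and in all of these control replicate 1 was the lowest array, at -0.65, -1.11 and -1.36 from the gene's mean over the arrays. Control replicate 1 was also the array with the fewest probes above background, 50.4%, and the part of this in the probe differences was not tested. Between the diets, the second probes differed by -0.19 for Crp, 0.10 for Hpx and 0.07 for Itih4, and without control replicate 1 they were -0.54, -0.31 and -0.35, with adjusted p = 0.396, adjusted p = 0.673 and adjusted p = 0.489 by limma.

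**Figure D3:**
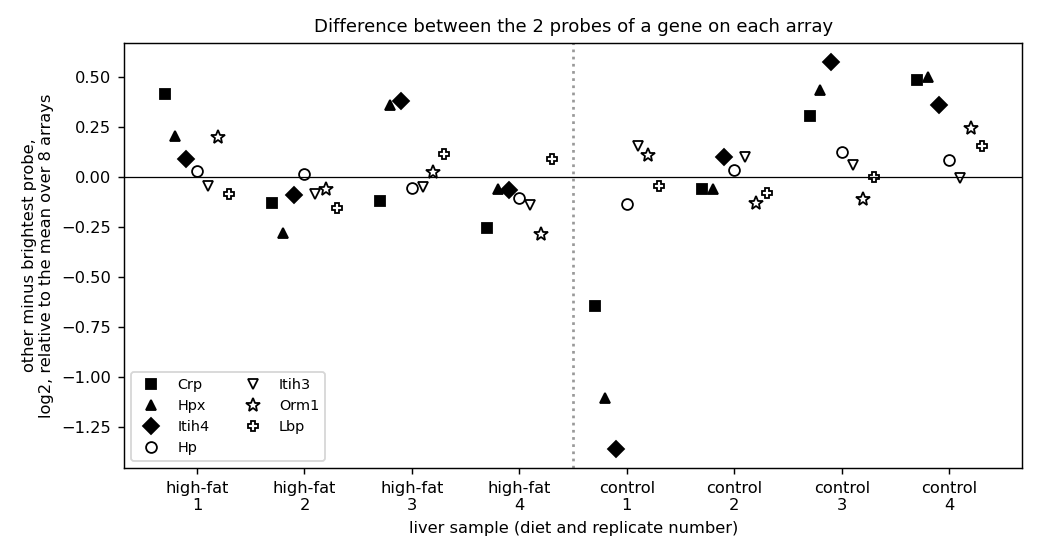
Second minus first probe on each array for 7 genes with a pair of probes, on the log2 scale and relative to the gene's mean over 8 arrays, with the high-fat samples left of the control samples. Filled marks show Crp, Hpx and Itih4, which lie at -0.65, -1.11 and -1.36 on control replicate 1, and open marks show Hp, Itih3, Orm1 and Lbp, which lie between -0.29 and 0.25 on all arrays. Apcs, A2m and Lcn2, whose range of -2.87 to 3.88 exceeds the axis, are not drawn.

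Genes whose profile over the 8 arrays was nearest to that of Orm1 were found by the root mean square difference of values centred on each gene's mean, among 11364 tested genes with a symbol. Because Orm1 differs between the diets, nearness to it selects genes that differ as well, and their differences are a description. The nearest 5 were Car7, a carbonic anhydrase, at 0.195, Reep6, a protein of the endoplasmic reticulum, at 0.254, Bok, of the Bcl2 family, at 0.274, Mbp, myelin basic protein, at 0.286, and Cd63, a tetraspanin of late endosomes, at 0.303. Their differences were -1.32, -0.92, -1.19, -0.92 and -0.80. Of the other members, A2m stood at rank 39 (0.376) and Lbp at rank 73 (0.405), while Crp stood at rank 1164 and Lcn2 at rank 8789.

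Other acute phase proteins that increase in inflammation gave 0 of 24 genes past the test in either direction by limma. At an unadjusted p under 0.05, 0 were higher and 5 lower, against 7.21% and 8.39% of all tested genes. Their median difference was -0.14, against 0.003 over all tested genes, with 6 positive and 18 negative. Spp1, osteopontin, differed by -1.64 (adjusted p = 0.185), and it is also counted among the markers of bile duct cells below. C4bpa, a brake on complement, differed by -0.41 (adjusted p = 0.198), and Il1rn, the interleukin-1 receptor antagonist, by -1.34 (adjusted p = 0.202). The groups did not overlap for 3 of the 24, all lower in high-fat livers, against 6.27% of all tested genes lower without overlap. The mean level of the list was 3.96 to 4.27 on the high-fat arrays, against 4.21 to 4.46 on the control arrays.

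Acute phase proteins that decrease in inflammation also gave 0 of 14 past the test. Of the 14, 4 were higher and 0 lower at an unadjusted p under 0.05, against 7.21% and 8.39% of all tested genes. Their median difference was 0.10, with 9 positive and 5 negative. Igf1, insulin-like growth factor 1, differed by 0.39 (adjusted p = 0.182), Serpina6, which carries corticosteroids in plasma, by 0.50 (adjusted p = 0.188), and A1i3, a protease inhibitor related to A2m, by 0.32 (adjusted p = 0.247). For 4 of the 14 the high-fat samples all lay above the control samples, and for 0 all below, against 4.87% and 6.27% of all tested genes.

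Of the cytokines, receptors and factors that drive the response, 21 of 23 were tested and 0 passed by limma. The count at an unadjusted p under 0.05 was 0, against 7.21% of all tested genes higher and 8.39% lower. The median difference was -0.10, with 8 positive and 13 negative and 0 without overlap (11.1% over all tested genes). Il6 was not tested, since no probe of it was well above background on more than 1 array. The smallest p-values were those of Tnf, a cytokine of macrophages, at -0.79 (adjusted p = 0.346), Jak2, a receptor kinase, at -0.32 (adjusted p = 0.409), and Nfkbiz, a nuclear regulator of NF-kappaB targets, at -0.81 (adjusted p = 0.444).

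The glucocorticoid receptor and genes known to respond to it gave 0 of 12 past the test by limma. At an unadjusted p under 0.05, 1 was higher and 0 lower, against 7.21% and 8.39% of all tested genes. Their median was 0.25, with 10 positive and 2 negative. Dusp1, a phosphatase of MAP kinases, differed by 1.27 (adjusted p = 0.290), Zbtb16, a zinc finger factor, by 0.30 (adjusted p = 0.533), and Pck1, an enzyme of glucose synthesis, by 0.53 (adjusted p = 0.580). The high-fat and control arrays overlapped for each of the 12, while 11.1% of all tested genes had no overlap.

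Among relatives and receptors of the members, 16 of 20 were tested and 0 passed by limma, with a median of 0.11. Of the 16, 4 were higher and 1 lower at an unadjusted p under 0.05, against 7.21% and 8.39% of all tested genes. The groups did not overlap for 3 that were higher (Itih1, A1i3 and Mug2) and 1 that was lower (Pltp), against 4.87% and 6.27% of all tested genes. Pltp, a phospholipid carrier of the Lbp family, differed by -0.63 (adjusted p = 0.0669), on the same side as Lbp. A1i3 and Mug2, relatives of A2m, differed by 0.32 and 0.68, on the other side from A2m (adjusted p = 0.247 and adjusted p = 0.256 by limma). Itih1, a heavy chain like Itih3 and Itih4, differed by 0.30 (adjusted p = 0.233), and Mmp9, a protease that Lcn2 binds, by 0.87 (adjusted p = 0.219).

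**Figure D4:**
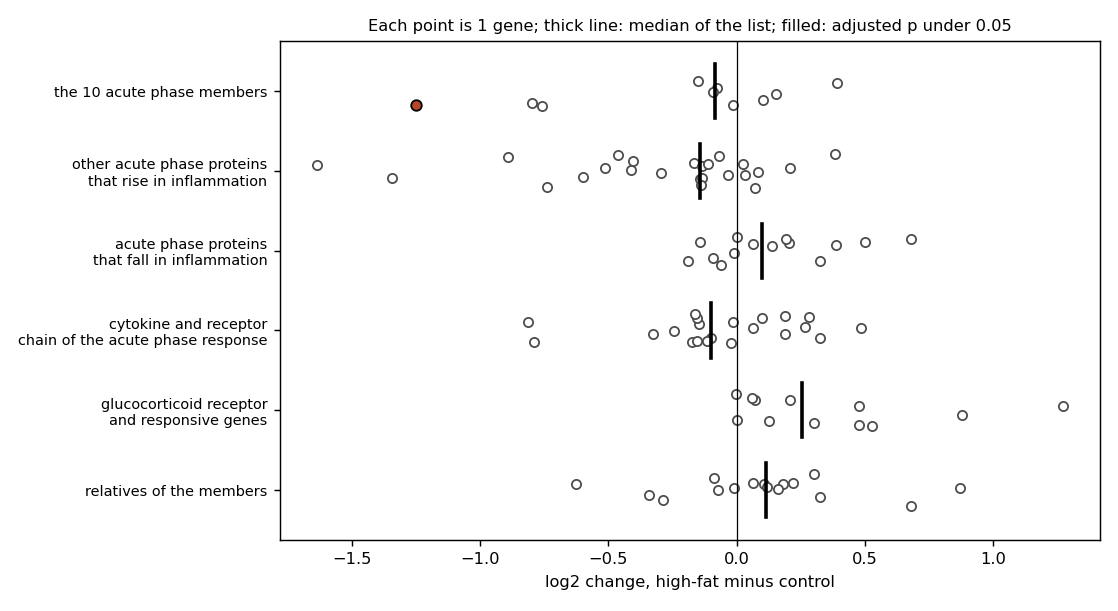
Difference of high-fat minus control livers on the log2 scale for each tested gene of the acute phase lists, with points for genes and bars for the median of each list. The medians run from -0.14 for the other proteins that increase in inflammation to 0.25 for glucocorticoid-responsive genes, and Orm1 is the one point past the test.

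Markers of other liver cells are given because several members are made or sensed by them. All 10 Kupffer cell and macrophage markers had negative differences, with a median of -0.41 and 0 past the test by limma. Among the 10, 0 were higher and 4 lower at an unadjusted p under 0.05, against 7.21% and 8.39% of all tested genes. Marco, a scavenger receptor, differed by -2.38 (adjusted p = 0.143), Vsig4, a complement receptor, by -0.78 (adjusted p = 0.178), and Clec4f, a lectin of Kupffer cells, by -0.60 (adjusted p = 0.181). Marco read -2.47 in high-fat replicate 3, against 0.35 to 0.50 in the other high-fat replicates, which enlarged its difference. The mean level of the 10 markers was 0.10 to 1.08 on the high-fat arrays, against 0.80 to 1.53 on the control arrays. The part of this in the lower Orm1 values was not tested.

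Cholangiocyte markers, of bile duct cells, had 6 of 7 tested, all 6 negative, a median of -0.61 and 0 past the test by limma. Their counts at an unadjusted p under 0.05 were 0 higher and 2 lower. For this list and those that follow, the shares over all tested genes at that threshold were 7.21% higher and 8.39% lower. Sox9 was above background on 1 array. Of 9 tested lymphocyte markers 1 was lower and 0 higher, against 0.527% and 0.35% of all tested genes. It was Cd3g of the T cell receptor complex, with a log2 difference of -1.44 (adjusted p = 0.0419 by limma). Cd3d and Cd3e of that complex differed by -0.70 and 0.02, and neither passed. Cd8a differed by -0.71 (adjusted p = 0.197 by limma). The list had 3 positive and 6 negative, a median of -0.26, and 0 higher and 3 lower at an unadjusted p under 0.05. Ms4a1 of B cells was above background on 0 of 8 arrays. Of 10 stellate cell markers 2 were higher and 0 lower, against 0.35% and 0.527% of all tested genes. Lrat, which esterifies retinol, was higher by at least 102.7-fold. Reln, an extracellular protein, had a log2 difference of 1.34 (adjusted p = 0.0149 by limma). The list had 6 positive and 4 negative, a median of 0.09, and 4 higher and 1 lower at an unadjusted p under 0.05. Colec11 differed by 0.72 with no overlap (adjusted p = 0.078 by limma). Des went the other way, at -0.70 with no overlap (adjusted p = 0.127 by limma). Lrat was not well above background on any control array and entered the tested markers through the high-fat arrays alone. The other 8 stellate markers did not pass. Adipocyte markers had 5 of 8 tested and 0 past the test by limma (1 higher and 0 lower at an unadjusted p under 0.05). Cidec had the smallest p among them, at 0.67 with no overlap (adjusted p = 0.131 by limma). Lep, the hormone leptin, was above background on 0 arrays, Retn on 2 and Adipoq on 3. Of the hepatocyte markers, 0 of 10 passed by limma (2 higher and 0 lower at an unadjusted p under 0.05), with a median of -0.01. The one with the smallest p was Cyp2e1, an ethanol-oxidizing cytochrome, at 0.88 (adjusted p = 0.091).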

How the data were processed

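Cy3-labelled cRNA, made from 500 ng of total liver RNA with an oligo-dT primer per the labels' protocols, was hybridised to 1-colour Agilent arrays (8 arrays on 1 slide, scanned on 1 day). Per the file headers, Agilent Feature Extraction 10.7.3.1 gave the spot intensity after subtracting the background. The authors' deposited table of log2 values, whose scaling is not given in the sources used here, served as an alternative. The medians of its columns, in the order of the replicate numbers, were -3.14, -3.20, -3.16 and -3.20 in the high-fat group, and -3.10, -3.21, -3.14 and -3.17 in the control group. Set against the scanner values, it had a log2 scale, brighter spots at higher values and no centring per probe. On each array 98.5% to 98.9% of its values lay within 0.05 of scanner values scaled to the 75th percentile over all non-control probes. That scaling was itself an alternative, so the pair are nearly the same check.

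Control and outlier-flagged spots were left out, spots of a probe averaged, and each array scaled to its 75th percentile over probes that all 8 arrays measured well above background. Probes that 4 or more arrays measured well above background (31546) were tested with limma 3.58.1 (lmFit, eBayes) under R 4.3.3. P-values were adjusted over all of them by the Benjamini-Hochberg method, the threshold was 0.05, and the test was tried on simulated data. The probe with the highest mean, called the first probe here, stood for its gene, which gave 18595 tested genes. Probe positions are those of the files, on rn4, and gene starts and sequences before them are from RefSeq on GRCr8. Where the annotation places a probe within a transcript was not analysed here. The rule for named genes took the 10 members with all probes and the 5 nearest to Orm1. From each other list it took the genes past the threshold and up to 3 with the smallest p. Fewer than 3 were named in this way for neutrophil, adipocyte and hepatocyte markers. Genes named for their detection alone, or outside this rule, were chosen after their values were seen. The members and lists were chosen with earlier results of these data known, and some lists share genes. Alternatives changed the background correction (normexp, offset 50), scaling, filter, summary per gene, variance model and weights of arrays, added the replicate number or the slide row as a block, and left out arrays. Leaving out both dimmest arrays was added after the data were seen.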

Additional observations from a re-analysis of the deposited data

Results flagged for a closer look

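In 3 of 72 sets of 4 arrays checked, 1 array stood apart from the other 3 by Dixon's criterion, which chance alone passes in about 1 in 20 sets. The second Orm1 probe read 1.05 in high-fat replicate 2, against 1.61 to 1.71 in the other high-fat replicates. The third A2m probe read 1.88 in control replicate 3, against 0.64 to 0.75 in the other controls, and the unmapped A2m probe read 2.11 there, against 0.82 to 1.04.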

How the results depend on the processing

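The count of members lower, 1 with all arrays, was 0 with quantile normalization, without a filter on dim probes, with the replicate block and without the dimmest array of each group, and 0 (lowest and highest) with each array left out in turn. In these the Orm1 difference stayed between -1.38 and -1.11. The replicate block gave Orm1 an adjusted p of 0.122, with 1 probe of all called against 286. Deviations of same-numbered samples correlated at -0.12, 0.26, 0.23 and 0.01, and those of differently numbered samples at -0.34 to 0.29. These values cannot tell whether the numbers pair the samples. No member was higher in any setting, and the median of the members stayed negative in all but slide row 2 alone, where it was 0.03. Small differences changed sign. Hpx was 0.0075 with normexp and 0.043 as the mean of its probes, and Lcn2 was -0.34 as the mean of its probes. Apcs was -0.041 without both dimmest arrays. With 1 array left out, Hpx ran from -0.089 to 0.072, Hp from -0.18 to 0.031 and Apcs from -0.0082 to 0.20. All probes called numbered 286, against 10 without a filter, 25 without both dimmest arrays, 23 to 154 with 1 array left out, 527 with probes above background on all 8 arrays, 543 with a trended robust variance, 167 with the slide row as a block and 140 as gene means. Of the marker calls named above, neutrophil markers higher ranged from 0 to 1, lymphocyte markers lower from 0 to 2 and stellate markers higher from 0 to 3. The cause of these changes was not tested. Dim probes limit what can be read, as for the second Lcn2 probe.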

Other observations

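The kininogens, chosen after their values were seen, are plasma precursors of kinins, and T-kininogen is a strongly responding acute phase protein of the rat. Kng1l1 measured 3.27, 3.18, 3.39 and 3.40 in high-fat replicates 1 to 4, against 3.18, 4.74, 5.01 and 3.89 in control replicates 1 to 4. The high-fat samples lay close together, while control replicates 2 and 3 stood well above control replicate 1. The differences were -0.89 for Kng1l1 (adjusted p = 0.293), -0.60 for Kng1 (adjusted p = 0.431) and -0.51 for Kng2 (adjusted p = 0.350), all by limma. The 3 genes are closely related, and cross-hybridisation of their probes was not tested.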
